A study of Mus musculus with 38 samples.

Results

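The opioid system of the mouse hypothalamus was described through 7 genes, the peptide precursors *Penk*, *Pdyn* and *Pnoc* and the receptors *Oprm1*, *Oprd1*, *Oprk1* and *Oprl1*. They were chosen by name. Each was represented by the probe set that carried its symbol alone, and each had exactly 1 such probe set among the 34760 on the array, which named 19937 gene symbols. The hypothalami came from 38 female FVB/N mice in models of Huntington's disease, each hybridised as RNA to 1 Affymetrix array. In the AAV set, wild-type mice received an adeno-associated viral vector (AAV5) on both sides of the hypothalamus at 8 weeks of age, and tissue was taken 4 weeks later, at 12 weeks. The vector carried an 853-amino-acid fragment of human huntingtin under the human Synapsin-1 promoter, which is active in neurons, with 79 glutamines (79Q, n = 8) or 18 glutamines (18Q, n = 5). The WT control mice (n = 5) were uninjected, and no group received a vector without huntingtin, so injection, vector and fragment cannot be told apart in either comparison with them. In the BACHD sets, mice carrying the full-length human gene with 97 CAG repeats were compared with age-matched WT littermates at 2 months (n = 6 and 6) and at 10 months (n = 5 and 3).

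Opioid peptides are cut from large precursor proteins inside secretory vesicles. *Penk* encodes the enkephalins, which act mainly on the delta receptor (*Oprd1*) and also on the mu receptor (*Oprm1*). *Pdyn* encodes the dynorphins, the main ligands of the kappa receptor (*Oprk1*), and *Pnoc* encodes nociceptin, the ligand of the related receptor *Oprl1*. All 4 receptors couple to inhibitory G proteins, which lower cyclic AMP, open potassium channels and close calcium channels. In the hypothalamus dynorphin is made by vasopressin neurons, orexin neurons and the kisspeptin and neurokinin B neurons of the arcuate nucleus, and opioid signalling bears on feeding, fluid balance, stress and reproduction.

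The values were deposited log2 intensities. Whether the 3 sets were normalised together is not stated in the sources used here. Since arrays of different sets shared no identical value, the sets were treated as separate and levels were tested only within a set. Array medians lay between 7.16 and 7.46, and no pair of arrays within a set correlated below 0.985. As a check of the tissue, *Pmch* (melanin-concentrating hormone), made almost only in the hypothalamus, averaged 12.19 in 79Q, 12.35 in 18Q and 12.49 in WT control. The 18Q replicate 3 array stood apart: its 14 hypothalamus markers averaged 8.47 and its 10 thalamus markers 8.90, against 9.08 to 9.24 and 8.40 to 8.48 on the other 18Q arrays. On 79Q replicates 6, 7 and 8 the hypothalamus markers averaged 8.81, 8.75 and 8.72 and the thalamus markers 8.83, 8.71 and 8.79, against 8.97 to 9.12 and 8.33 to 8.47 on the other 79Q arrays. Differences of the 7 genes from WT control are also given without these arrays, a choice made after the data were seen. In the 2-month set the thalamus markers spread more widely, from 8.24 to 9.95 on BACHD arrays and from 8.42 to 9.84 on WT arrays. In bulk tissue, fewer cells of a type and less RNA per cell cannot be told apart.

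*Penk* was the 1 opioid gene called lower in the 79Q hypothalamus. *Pdyn* differed from WT control by a similar amount, -0.31, and was not called. On the 8 79Q arrays its level was 11.69 at the lowest, 11.92 at the median and 12.03 at the highest. On the 18Q arrays it was 12.34, 12.14, 11.93, 12.11 and 12.31, and on the WT control arrays it was 12.19, 12.24, 12.13, 12.13 and 12.27. Every 79Q array lay below every WT control array, whereas the 18Q arrays lay on both sides of the control range. The mean was 11.90 ± 0.12 in 79Q and 12.19 ± 0.06 in WT control (SD, n = 8 and 5), a log2 difference of -0.29 (SE 0.07) or 0.817 of the control level (limma, adjusted p = 0.0297 over all probe sets; two-sided exact permutation p = 0.000777, the smallest that 8 against 5 arrays allow). The call was narrow: it was lost on leaving out 79Q replicate 6, 7 or 8 or any 1 of the 5 WT control arrays, with adjusted p-values up to 0.0881, while the difference stayed between -0.31 and -0.26. Replicates 6, 7 and 8, the 79Q arrays with high thalamus markers, were also the 3 lowest in *Penk*, at 11.69, 11.84 and 11.80. Without all 3 of them the difference was -0.22 (adjusted p = 0.249) and no opioid gene was called. Their part in the result was otherwise not tested.

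Of the 7 opioid genes, *Penk* was the 1 called at an adjusted p under 0.05 in the 79Q mice, as were 2.07% of all probe sets. It was also the 1 whose 79Q arrays all lay below the controls, as did 0.938% of all probe sets. At an unadjusted p under 0.05, 5 of the 7 were lower in 79Q, against 8.31% of all probe sets. The median log2 difference of the 7 genes was -0.19, beside -0.02 over all probe sets. All 7 differences were negative, as were 57.8% of all probe sets, and that of *Oprd1* was -0.005.

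**Figure D1:**
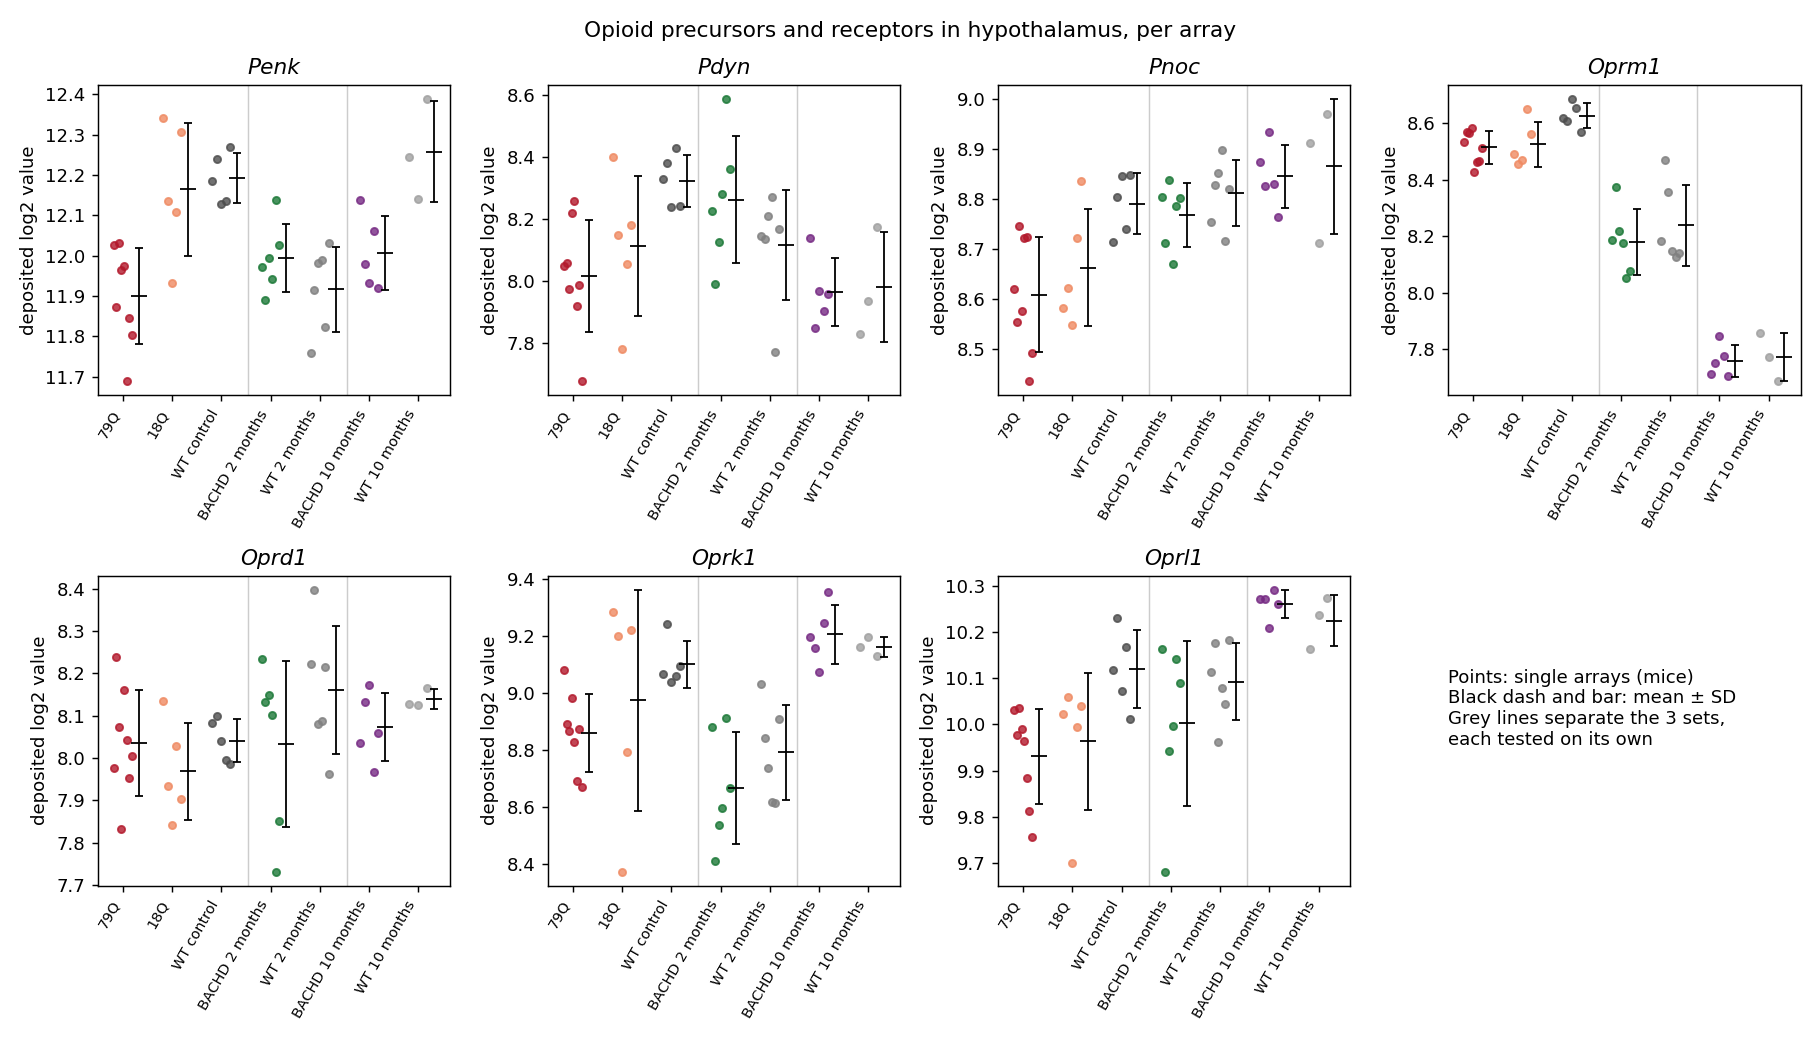
Deposited log2 value (vertical axis) of each of the 7 genes on each array, by group (horizontal axis), with group mean ± SD at the right of the points. The 8 79Q arrays of *Penk* reach up to 12.03 and all lie under the 5 WT control arrays, the lowest of which is at 12.13, and a single 18Q array is at 8.37 for *Oprk1*.

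Without those 3 arrays the other 79Q vs. WT differences were -0.21 for *Pdyn*, -0.15 for *Pnoc*, -0.09 for *Oprm1*, 0.02 for *Oprd1*, -0.17 for *Oprk1* and -0.12 for *Oprl1*. The other precursors did not pass the adjusted threshold. *Pdyn* had its lowest 79Q array at 7.68, the median at 8.02 and the highest at 8.26. Its values were 8.40, 8.15, 7.78, 8.06 and 8.18 in 18Q, against 8.33, 8.38, 8.24, 8.43 and 8.24 in WT control. All 8 79Q arrays lay below the control mean, but the ranges of both injected groups overlapped that of the controls. Its log2 difference from WT was -0.31 with an SE of 0.09 for 79Q (adjusted p = 0.118). For 18Q it was -0.21 with an SE of 0.10 (adjusted p = 0.428), or -0.13 without 18Q replicate 3.

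*Pnoc* ran from 8.44 through a median of 8.60 to 8.74 in 79Q. It measured 8.58, 8.62, 8.55, 8.72 and 8.84 in 18Q, and 8.71, 8.80, 8.85, 8.74 and 8.85 in WT control. Again all 8 79Q arrays were under the control mean and the groups overlapped. The log2 difference from WT was -0.18 for 79Q, with an SE of 0.06 (adjusted p = 0.141), and -0.13 for 18Q, with an SE of 0.07 (adjusted p = 0.442).

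Among the receptors, *Oprk1*, which binds dynorphin, was the most uneven. Its 79Q arrays had a lowest value of 8.67, a median of 8.87 and a highest of 9.08. The 18Q arrays gave 9.28, 9.20, 8.37, 8.79 and 9.22, and the WT control arrays 9.07, 9.24, 9.04, 9.06 and 9.10. Replicates 3 and 4 of 18Q were below all controls, and the other 3 18Q arrays were above the control mean. The difference in 79Q vs. WT was -0.24 on the log2 scale (SE 0.12, adjusted p = 0.391), with a spread that the 18Q arrays share in the fit. Fitted on the 79Q and WT control arrays alone the adjusted p was 0.0811, and the two-sided exact permutation p was 0.00622. In 18Q vs. WT the difference was -0.13 (adjusted p = 0.79) and turned to 0.02 without 18Q replicate 3.

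*Oprl1*, the nociceptin receptor, was at 9.76 to 10.03 in 79Q with a median of 9.97. It was at 10.02, 10.06, 9.70, 9.99 and 10.04 in 18Q, and at 10.12, 10.23, 10.07, 10.17 and 10.01 in WT control. All 8 79Q arrays and all 5 18Q arrays lay below the control mean, with overlap in both cases. The 79Q mean differed from that of WT control by -0.19 on the log2 scale, with an SE of 0.06 (adjusted p = 0.159). The 18Q mean differed by -0.16 with an SE of 0.07 (adjusted p = 0.358), and by -0.09 without 18Q replicate 3.

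*Oprm1*, the receptor of morphine and of endogenous enkephalins and endorphin, had 79Q values from 8.43 to 8.58 with a median of 8.52. The 18Q values were 8.49, 8.46, 8.47, 8.65 and 8.56, against 8.62, 8.61, 8.69, 8.66 and 8.57 in WT control. The differences from WT control were small, -0.11 for 79Q (adjusted p = 0.178) and -0.10 for 18Q (adjusted p = 0.328), with an SE of 0.04 for both. *Oprd1*, the delta receptor, was the 1 gene whose 79Q mean lay on the control mean. It averaged 8.04 ± 0.13 in 79Q, 7.97 ± 0.12 in 18Q and 8.04 ± 0.05 in WT control (SD, n = 8, 5 and 5), and the 95% confidence interval of 79Q minus WT ran from -0.13 to 0.12.

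In 18Q vs. WT no opioid gene passed the adjusted threshold, where 2.11% of all probe sets did, and none had 18Q arrays entirely below the controls (1.50% of all probe sets). *Oprm1* and *Oprl1* were lower at an unadjusted p under 0.05, 2 of 7 genes against 6.50% of all probe sets. That count includes 18Q replicate 3. Without it the difference was -0.088 (SE 0.046) for *Oprm1* and -0.091 (SE 0.060) for *Oprl1*, each under 2 SEs. For *Penk* the 18Q mean was 12.16 ± 0.16 and the control mean 12.19 ± 0.06 (SD, n = 5 each), with a 95% confidence interval of the difference from -0.19 to 0.13. Without 18Q replicate 3 the 18Q differences were 0.03 for *Penk*, -0.10 for *Pnoc*, -0.09 for *Oprm1* and -0.04 for *Oprd1*. The comparisons of 79Q and of 18Q with WT use the same 5 control arrays, so their values do not stand as independent of each other.

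The direct comparison of repeat lengths set 79Q against 18Q. *Penk* was at 11.90 ± 0.12 in 79Q and 12.16 ± 0.16 in 18Q (SD, n = 8 and 5), a log2 difference of -0.26 (SE 0.07). All 8 79Q arrays lay below the 18Q mean. The two-sided exact permutation p was 0.00699, without adjustment, and *Penk* stood at rank 29 of 34760 probe sets by p, but no probe set in this comparison passed the adjusted threshold (0%). Without 18Q replicate 3, the low 18Q array, the difference was -0.32, and without 79Q replicates 6, 7 and 8 it was -0.19. *Penk* was the 1 gene of the 7 lower at an unadjusted p under 0.05 (2.66% of all probe sets), and no opioid gene had all its 79Q arrays below all its 18Q arrays (0.0489% of all probe sets). The other 6 genes differed by -0.11 to 0.07, each with an interval that included 0.

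**Figure D2:**
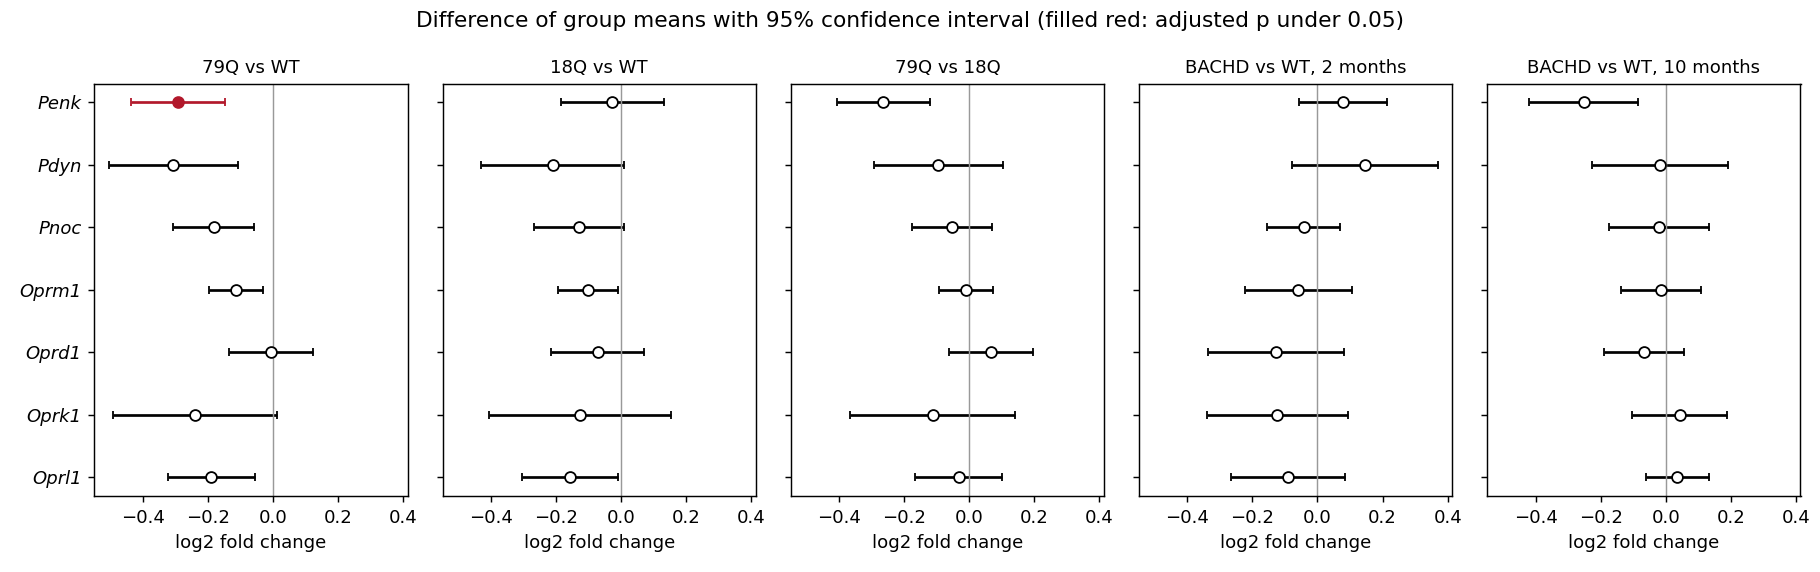
Log2 fold change (horizontal axis) of the 7 genes (vertical axis) in 5 comparisons, with the 95% confidence interval of the limma fit. *Penk* is at -0.29, -0.03 and -0.26 in the 3 AAV comparisons, at 0.08 in BACHD at 2 months and at -0.25 in BACHD at 10 months, and the filled point of 79Q vs. WT is the single call.

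In BACHD mice no probe set of the array passed the adjusted threshold at 2 months (0%) or at 10 months (0%). At 2 months the *Penk* level was 11.89 at the lowest, 11.98 at the median and 12.14 at the highest in BACHD, and 11.76, 11.95 and 12.03 in WT. The groups overlapped throughout, with a log2 difference of 0.08 (SE 0.06, adjusted p = 0.939). *Pdyn* had the largest difference of the 7 at this age, 0.15 (SE 0.10). It averaged 8.26 ± 0.20 in BACHD and 8.12 ± 0.18 in WT (SD, n = 6 each). Without WT replicate 5, its lowest array at 7.77, the *Pdyn* difference was 0.08. The differences of the 4 receptors lay between -0.13 and -0.06, and each interval included 0. None of the 7 was lower at an unadjusted p under 0.05 (3.22% of all probe sets) and none had all its BACHD arrays below all its WT arrays (0.0949%).

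At 10 months *Penk* was 12.14, 11.98, 11.93, 12.06 and 11.92 in BACHD, against 12.24, 12.14 and 12.39 in WT. The highest BACHD array, at 12.139, lay just under the lowest WT array, at 12.140, so all BACHD arrays were below all WT arrays, as was so for 1.56% of all probe sets. The difference was -0.25 on the log2 scale (SE 0.07, two-sided exact permutation p = 0.0179, the smallest that 5 against 3 arrays allow), yet its adjusted p was 0.997. *Penk* was the 1 gene of 7 lower at an unadjusted p under 0.05, against 2.00% of all probe sets. Without WT replicate 3, its highest array, the difference was -0.19.

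The other 6 genes at 10 months differed by -0.07 to 0.04. *Pdyn* averaged 7.96 ± 0.11 in BACHD and 7.98 ± 0.18 in WT, and *Oprk1* averaged 9.21 ± 0.10 in BACHD and 9.16 ± 0.03 in WT (SD, n = 5 and 3). *Oprl1* was at 10.27, 10.27, 10.21, 10.29 and 10.26 in BACHD and 10.16, 10.24 and 10.27 in WT. The intervals of these differences reached from -0.23 to 0.19.

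The genotype effect on *Penk* was -0.25 at 10 months and 0.08 at 2 months, a difference of -0.33 (SE 0.10). Its two-sided exact permutation p, with genotype labels exchanged within each age, was 0.00568 over 51744 assignments and was not adjusted. In the fit over all probe sets none passed the adjusted threshold (0%), and *Penk* was at rank 55 by p. For the other 6 genes the exact p-values lay between 0.149 and 0.768.

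Levels were not tested between sets, so the order of the 7 groups is a description. The mean level of *Penk* was highest in WT at 10 months and lowest in 79Q. Each step between neighbours in that order was smaller than the sum of their SDs. The same was so for *Pdyn* (WT control first, BACHD at 10 months last), *Pnoc* (WT at 10 months first, 79Q last), *Oprd1* (WT at 2 months first, 18Q last), *Oprk1* (BACHD at 10 months first, BACHD at 2 months last) and *Oprl1* (BACHD at 10 months first, 79Q last). *Oprm1* alone lay at 3 separate levels. It averaged 8.52 to 8.63 in the AAV set, 8.18 in BACHD and 8.24 in WT at 2 months, and 7.76 in BACHD and 7.77 in WT at 10 months. Age and set cannot be told apart here.

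The genes that make, remove and transmit opioid signals were examined next. Of 10 measured precursor-processing genes none passed in 79Q vs. WT, and their median log2 difference was -0.03. *Pcsk2*, the gene of the convertase PC2, was not among these 10. The 3 with the smallest p were *Pcsk1* (-0.18, adjusted p = 0.128), a convertase that cuts prohormones, *Furin* (0.10, adjusted p = 0.242), a convertase of the secretory pathway, and *Scg5* (-0.06, adjusted p = 0.395), the chaperone of the convertase PC2. In 18Q vs. WT none passed either, with a median of 0.01.

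Of 8 measured genes for peptide-degrading enzymes, 1 rose and none fell in 79Q vs. WT, with a median of -0.03. *Anpep*, the aminopeptidase N that trims enkephalin, averaged 6.96 in 79Q and 6.64 in WT control (log2 difference 0.32, adjusted p = 0.0275). In 18Q it also averaged 6.96 (difference 0.32, adjusted p = 0.049), and there *Ace*, the angiotensin-converting enzyme, fell to 9.18, against 9.45 in WT control (-0.27, adjusted p = 0.0263). Without 18Q replicate 3 the 18Q differences were 0.31 for *Anpep* (adjusted p = 0.117) and -0.26 for *Ace* (adjusted p = 0.0748), and without 79Q replicates 6, 7 and 8 the 79Q difference of *Anpep* was 0.24 (adjusted p = 0.159), so none of these calls held. *Mme* (neprilysin), which also cleaves enkephalin, did not pass in either comparison (0.10 in 79Q and -0.08 in 18Q). *Anpep* is also made by myeloid and vascular cells. Of 8 measured microglia markers 6 rose in each injected group, *C1qa* by 1.46 in 79Q and 1.59 in 18Q. Their array means lay between 8.91 and 9.65 for 79Q mice, between 8.97 and 9.51 for 18Q mice, and between 8.37 and 8.47 for the controls. Of 8 lymphocyte markers 4 rose in each injected group, and their array means spanned 6.51 to 7.25 (79Q), 6.58 to 7.32 (18Q) and 6.11 to 6.25 (WT control). The part of these cells in the *Anpep* values was not tested.

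None of 21 measured receptor-coupling genes (inhibitory G-protein subunits, potassium and calcium channels, adenylyl cyclases, arrestins and RGS proteins) passed in 79Q or 18Q vs. WT. The medians were -0.02 and -0.06. In 79Q the smallest p-values belonged to *Gnaz* (-0.13, adjusted p = 0.214), *Rgs17* (-0.10, adjusted p = 0.28) and *Kcnj5* (-0.18, adjusted p = 0.372). None of 7 other opioid-related genes passed. The 3 with the smallest p in 79Q were *Ogfr*, the opioid growth factor receptor (0.16, adjusted p = 0.2), *Opcml*, a cell adhesion molecule (-0.11, adjusted p = 0.213), and *Npffr2*, a receptor of neuropeptide FF (-0.22, adjusted p = 0.214). *Pomc*, the precursor of beta-endorphin, averaged 7.85 in 79Q, 7.85 in 18Q and 8.08 in WT control (differences of -0.22 and -0.23, adjusted p = 0.447 and 0.538).

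The 6 genes listed as partners of *Pdyn* in dynorphin cells had a median log2 difference of -0.44 in 79Q vs. WT, and 1 of 6 passed. In which cells they differed was not tested. Without 79Q replicates 6, 7 and 8 the median was -0.25. *Tacr3*, the neurokinin B receptor, fell to 8.49 in 79Q, against 8.95 in WT control (-0.45, adjusted p = 0.000403). Without 79Q replicates 6, 7 and 8 its difference was -0.41 (adjusted p = 0.00327). In 18Q it averaged 8.74, a difference of -0.21 that did not pass (adjusted p = 0.164). In BACHD it averaged 8.43, against 8.83 in WT at 2 months (-0.40, adjusted p = 0.939), and 8.60, against 9.21 in WT at 10 months (-0.60, adjusted p = 0.997). *Hcrt*, the orexin precursor, averaged 12.26 in 79Q, 12.62 in 18Q and 12.70 in WT control (79Q vs. WT -0.43, adjusted p = 0.0865; 18Q vs. WT -0.08, adjusted p = 0.892). *Avp* (vasopressin) was at -0.56 in 79Q and -0.66 in 18Q with wide errors (SE 0.33 and 0.37). In 79Q and 18Q, *Oxt* was at -0.45 and -0.58, *Tac2* at -0.27 and -0.19, and *Kiss1* at -0.06 and 0.05. None of these passed. In BACHD at 10 months *Hcrt* averaged 12.56, against 12.84 in WT (-0.28, adjusted p = 0.997). At that age *Avp* was at 0.18, *Oxt* at 0.05, *Tac2* at -0.04 and *Kiss1* at -0.02, and none passed.

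**Figure D3:**
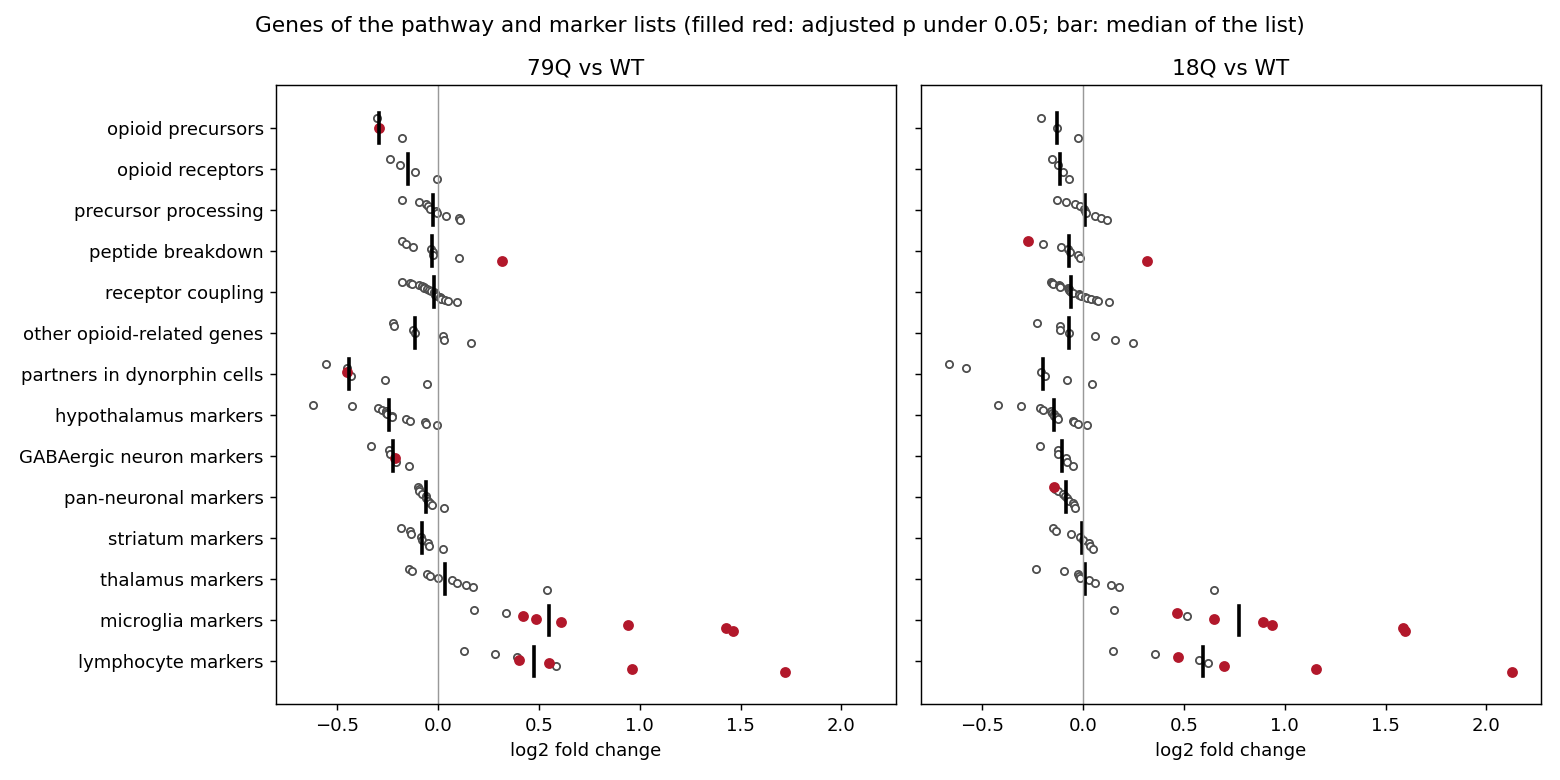
Log2 fold change (horizontal axis) of single genes in pathway and marker lists (vertical axis) for each injected group against WT; filled points passed the adjusted threshold and bars are list medians. The precursor median is -0.29 in 79Q and -0.13 in 18Q, the median of microglia markers 0.55 and 0.77.

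Markers of the tissue and its neurons were compared in the same way. Of 14 hypothalamus markers none passed in 79Q vs. WT, but all 14 were negative (57.8% of all probe sets were), with a median of -0.24. Their array means ran from 8.72 to 9.12 for 79Q mice and from 9.05 to 9.25 for the controls. In 18Q mice the range was 8.47 to 9.24. Of 6 GABAergic neuron markers 1 fell, *Gad1*, the enzyme that makes GABA (-0.21, adjusted p = 0.0275), and the median was -0.23. Without 79Q replicates 6, 7 and 8 the median of the hypothalamus markers was -0.09 and that of the GABAergic markers -0.16, and *Gad1* was at -0.16 (adjusted p = 0.233). The 10 pan-neuronal markers were nearer to 0, with a median of -0.06 and none passing, and the 8 striatum markers, a tissue rich in *Penk*, had a median of -0.08. In 18Q vs. WT all 10 pan-neuronal markers were negative with a median of -0.09, where 55% of all probe sets were negative. *Eno2*, a neuronal enolase, fell to 12.20, against 12.34 in WT control (-0.14, adjusted p = 0.0315). That call was lost without 18Q replicate 3 (-0.13, adjusted p = 0.0871).

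*Penk* was also low where hypothalamus markers were low within a group. After group means were removed, its correlation with the hypothalamus markers over the 18 AAV arrays was r = 0.76 (permutation p = 0.00153, adjusted 0.0214 over 84 relations; rho = 0.666, p = 0.00335), and r was 0.633 without the 2 farthest arrays. With the thalamus markers it was r = -0.829 (permutation p = 0.00014, adjusted 0.00588; rho = -0.769, p = 0.00069; -0.669 without the 2 farthest). Without the 4 arrays that stood apart, 79Q replicates 6, 7 and 8 and 18Q replicate 3, r over 14 arrays was 0.348 with the hypothalamus markers and -0.394 with the thalamus markers. Over the 12 arrays at 2 months the correlation with the hypothalamus markers was r = 0.833 (permutation p = 0.00035, adjusted 0.00735; rho = 0.944, p = 9e-05), and 0.821 without the 2 farthest. At 10 months it was r = 0.444 over 8 arrays (permutation p = 0.429; rho = 0.31, p = 0.564; 0.42 without the 2 farthest). With the thalamus markers *Penk* had r = -0.452 at 2 months (permutation p = 0.16, adjusted 0.363; rho = -0.476, p = 0.145; -0.588 without the 2 farthest). At 10 months that r was 0.214 (permutation p = 0.638, adjusted 0.777; rho = 0.143, p = 0.755; 0.157 without the 2 farthest).

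With the mean of the thalamus markers as a covariate, the *Penk* difference in 79Q vs. WT was -0.26 (adjusted p = 0.00339). With the mean of the hypothalamus markers as a covariate, a setting chosen after seeing the data, it was -0.18 (adjusted p = 0.218), and that list holds peptide genes that may differ with the fragment themselves. For *Oprk1* the same covariate took the 79Q difference to -0.02 (adjusted p = 0.975) and for *Pdyn* to -0.14 (adjusted p = 0.55). In BACHD at 10 months *Penk* stayed at -0.26 with the hypothalamus covariate and at -0.27 with the thalamus covariate. There the thalamus markers averaged 8.64 to 9.51 in BACHD and 8.37 to 9.04 in WT, and the hypothalamus markers 9.09 to 9.34 in BACHD and 8.83 to 9.34 in WT.

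**Figure D4:**
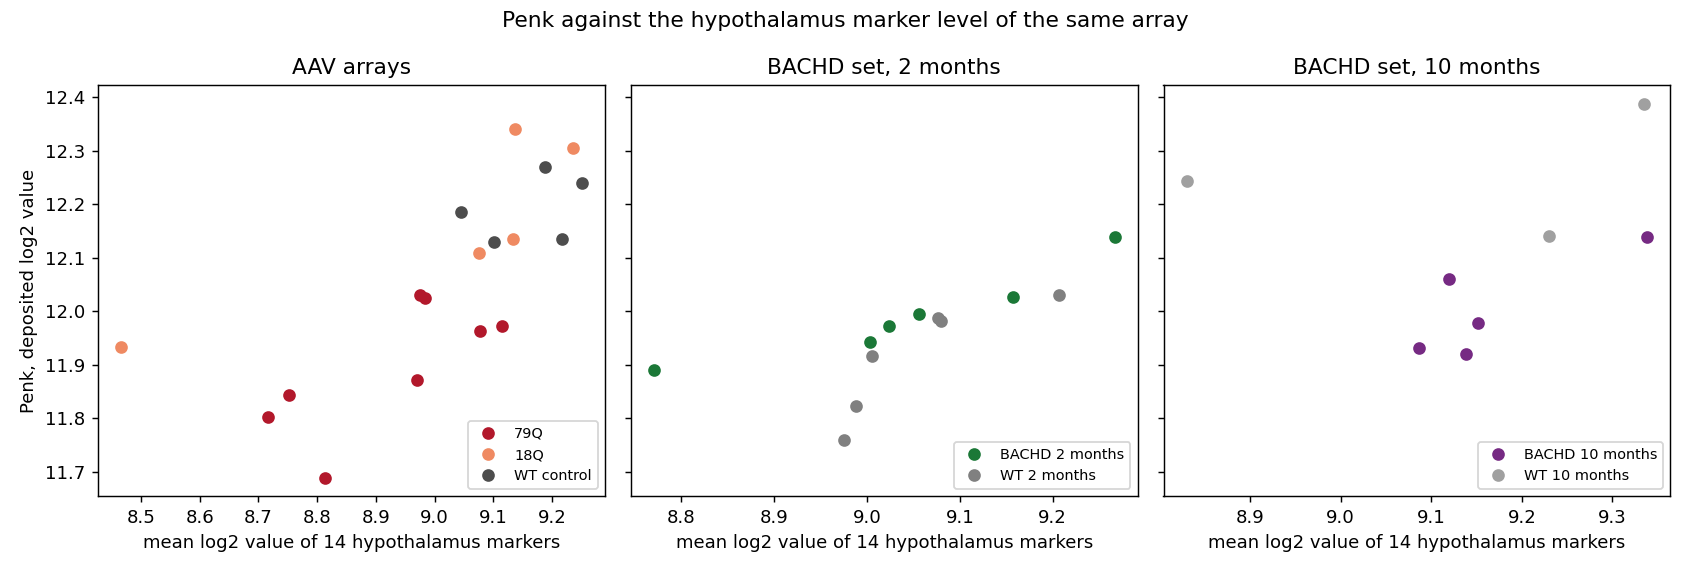
*Penk* level (vertical axis, log2) against the mean log2 value of 14 hypothalamus markers on the same array (horizontal axis), in the AAV set and in BACHD mice at 2 and 10 months. The 8 79Q arrays lie under the WT control arrays in *Penk*, and at 2 months, where r was 0.833, BACHD and WT arrays are intermingled.

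Correlations among the 7 genes in the AAV set were lower without the arrays that stood apart. With all 18 arrays the 21 pairs had an r of 0.00078 to 0.803 after group means were removed, with a median of 0.323, and 4 pairs passed adjustment over the 63 relations of the 3 sets. Without the 4 arrays named above, 10 of the 21 pairs were positive and the median was -0.0238. *Penk* and *Oprk1* had r = 0.803 (permutation p = 0.00017, adjusted 0.0107; rho = 0.783, p = 0.00086; 0.671 without the 2 farthest arrays). *Oprk1* and *Oprl1* had r = 0.782 (permutation p = 0.00077, adjusted 0.0243; rho = 0.744, p = 0.00087; 0.637 without the 2 farthest). *Pdyn* followed *Oprl1* (r = 0.752, permutation p = 0.00203, adjusted 0.032; rho = 0.643, p = 0.00822; 0.451 without the 2 farthest) and its own receptor *Oprk1* (r = 0.744, permutation p = 0.00141, adjusted 0.0296; rho = 0.709, p = 0.00248; 0.549 without the 2 farthest). By rho, *Oprk1* passed with *Penk* and with *Oprl1* (adjusted permutation p = 0.0274 for both). *Pdyn* did not pass by rho with *Oprl1* or *Oprk1* (adjusted permutation p = 0.0814 and 0.0515). Without the 4 arrays r was 0.619 for *Penk* and *Oprk1*, and 0.43 for *Oprk1* and *Oprl1*. It was 0.194 for *Pdyn* and *Oprl1*, and 0.416 for *Pdyn* and *Oprk1*.

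*Oprl1*, *Oprk1* and *Pdyn* also correlated with the hypothalamus markers over all AAV arrays, with r = 0.866 (permutation p = 0.00071, adjusted 0.0119; rho = 0.738, p = 0.00139; 0.689 without the 2 farthest) for *Oprl1* and r = 0.823 (permutation p = 0.00214, adjusted 0.0248; rho = 0.676, p = 0.00333; 0.546 without the 2 farthest) for *Oprk1*. For *Pdyn* it was r = 0.808 (permutation p = 0.00032, adjusted 0.00735; rho = 0.814, p = 0.00012; 0.646 without the 2 farthest). Without the 4 arrays these values were 0.223 for *Oprl1*, 0.351 for *Oprk1* and 0.539 for *Pdyn*. For *Pnoc* r was 0.525 and did not pass (adjusted permutation p = 0.173). For the mu and delta receptors r was 0.245 (*Oprm1*) and 0.296 (*Oprd1*), and neither passed (adjusted permutation p = 0.617 and 0.512). At 2 months r was negative for both, -0.749 for *Oprd1* (permutation p = 0.00868, adjusted 0.0644; rho = -0.713, p = 0.0132; -0.799 without the 2 farthest) and -0.621 for *Oprm1* (adjusted permutation p = 0.123). At 10 months it was -0.811 for *Oprm1* (permutation p = 0.0428, adjusted 0.155; rho = -0.81, p = 0.0405; -0.581 without the 2 farthest), and none of these passed. At 2 months 12 of the 21 pairs were positive and the pair *Oprk1* and *Oprl1* passed (r = 0.773, permutation p = 0.00349, adjusted 0.044; rho = 0.818, p = 0.00327; 0.826 without the 2 farthest). By rho that pair did not pass (adjusted permutation p = 0.0515). At 10 months 10 of 21 pairs were positive and none passed.

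**Figure D5:**
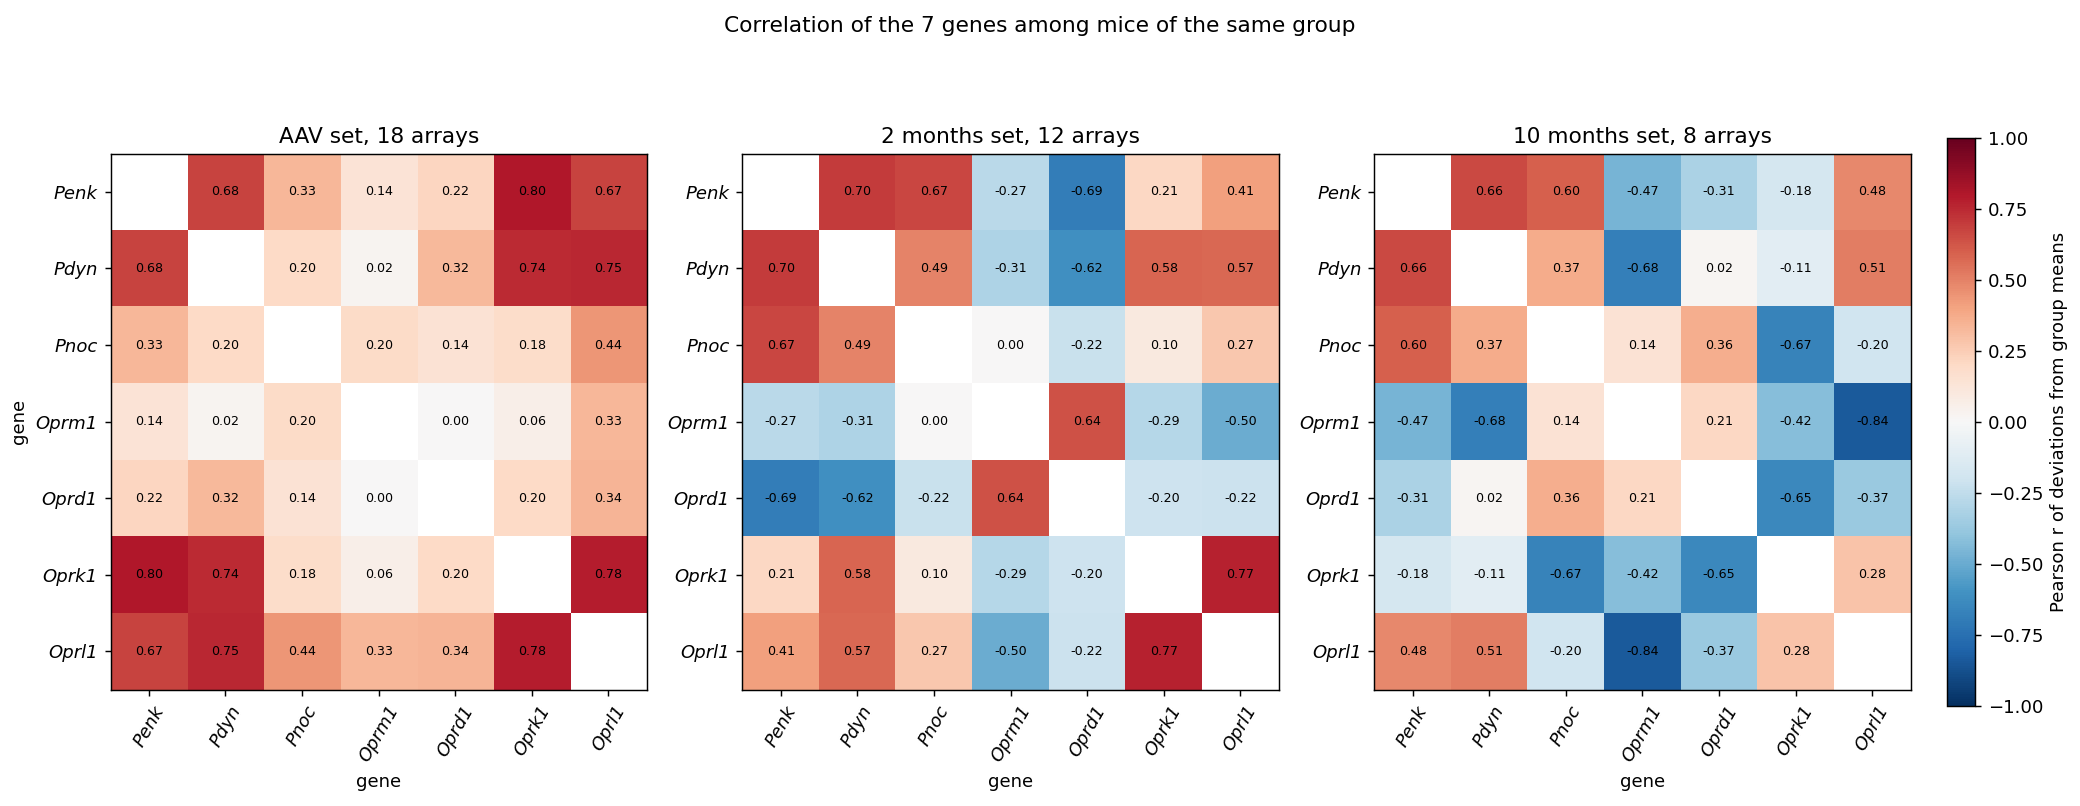
Pearson r of deviations from group means for each pair of the 7 genes (both axes), in the AAV set (18 arrays), at 2 months (12 arrays) and at 10 months (8 arrays). All 21 pairs are positive in the AAV set, up to 0.803 for *Penk* and *Oprk1*, while the other sets hold pairs of both signs; without the 4 arrays that stood apart 10 of the 21 AAV pairs are positive.

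Across all 38 arrays, with group means removed, the gene closest to *Penk* was *Gabrg1*, a GABA-A receptor subunit (r = 0.82), followed by *Pgr15l*, *AW551984* and *Gpr165*. *Gabre*, another GABA-A subunit, was closest to *Pdyn* (r = 0.821), then *Ets2*, *Cdh13* and *Fgf2*. The closest genes were *Entpd6* for *Oprk1* (r = 0.828), *Pnck* for *Oprl1* (r = 0.914), *Phka2* for *Oprm1* (r = 0.827) and *Adcy4* for *Oprd1* (r = 0.805). For *Pnoc* no gene was as close, the highest being *Mrgpre* at r = 0.642. Each r over the 38 arrays was the highest of all gene symbols and is given as a description, and the arrays differed in their tissue markers. Within the 10-month set the r of the closest gene was 0.697 for *Penk*, 0.797 for *Pdyn* and 0.218 for *Pnoc*. There it was 0.808 for *Oprm1*, 0.412 for *Oprd1*, -0.116 for *Oprk1* and 0.892 for *Oprl1*.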

How the data were processed

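Hypothalamic RNA of 38 mice was hybridised to Affymetrix Mouse Gene ST arrays. The authors normalised the arrays by RMA and deposited log2 values for 34760 probe sets (affy 1.70.0 in R 4.1.1, with limma 3.48.3 in the submitters' processing notes; the genome build is not given in the sources used here). The files hold no scan date. Pairs of arrays within a set shared up to 22 identical values and pairs across sets shared 0, so the AAV, 2-month and 10-month sets were treated as separate; the sources used here do not state it. Of the probe sets, 21640 carried 1 gene symbol, 1321 several and 11799 none.

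Differences were tested with limma 3.58.1 in R 4.3.3 (lmFit, eBayes, two-sided, Benjamini-Hochberg over all probe sets, threshold 0.05), with 1 fit per set and a joint fit of both ages for the age-by-genotype contrast. Each member also had an exact permutation test per comparison (35 tests, unadjusted). Correlations used deviations from group means and 100000 permutations within groups. The limma steps were tested on simulated arrays with independent noise for each probe set. The exact tests and correlations were not tested in this way. The labels name separate mice, and precision rests on how many arrays a group has. Alternatives were median centring, a filter on dim probe sets, another variance model, mean probe sets, marker covariates, the compared groups alone, a replicate block, leaving out each array and, chosen after seeing the data, leaving out the arrays whose tissue markers stood apart.

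The 7 members and the 18 gene lists (149 of 163 genes measured) were chosen with earlier results of these data known. Beyond the members, genes of the pathway lists were named where they passed the threshold in an AAV comparison or, failing that, had among the 3 smallest p-values of a list in 79Q vs. WT. Marker lists of other cells were given as counts, with an example. Named too were the 4 closest genes by correlation for *Penk* and *Pdyn*, and the closest gene for each other member. *Pomc*, *Mme*, *Hcrt*, *Avp*, *Oxt*, *Tac2*, *Kiss1*, *C1qa* and *Pmch* were named besides for their role, with values seen. Promoter and protein sequences were not used here.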

Additional observations from a re-analysis of the deposited data

Results flagged for a closer look

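Of 42 groups of 5 to 8 arrays, 3 held 1 array far from the rest, where chance gives about 1 in 20. *Pdyn* was at 7.77 on WT 2 months replicate 5, with the next at 8.14. *Oprk1* was at 9.24 on WT control replicate 2, with the next at 9.10. *Oprl1* was at 9.70 on 18Q replicate 3, with the next at 9.99.

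Of 14 tests of a difference between effects, 2 had an exact permutation p under 0.05 without adjustment, both for *Penk*. The difference of 79Q minus 18Q was -0.26 (exact p = 0.00699; lower in 8 of 8 79Q arrays than the 18Q mean). The genotype effect at 10 months minus that at 2 months was -0.33 (exact p = 0.00568). Neither passed over all probe sets.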

How the results depend on the processing

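In 79Q vs. WT 1 of 23 alternatives, the mean of a gene's probe sets, repeated the main fit, since each gene had 1 probe set. Counting it, the *Penk* call there held under 11 of the 23. Adjusted p ran from 0.00339 to 0.447 and the difference from -0.31 to -0.18. The count of opioid genes called there was 0 with striatum markers as a covariate (*Penk* still at -0.29), 0 with hypothalamus markers as a covariate, 0 without 79Q replicates 6, 7 and 8 together (*Penk* -0.22) and 0 with the replicate block, and 0 to 1 when single arrays were left out. No opioid gene was called in any other comparison under any alternative. The labels do not say whether the replicate numbers pair the samples, and the samples were treated as unpaired. Correlations of same-numbered deviations ran from -0.311 to 0.28, and in no comparison were all above 0.1. They were not set against differently numbered arrays, so they cannot settle the pairing. The hypothalamus covariate and the joint removal of those 3 arrays were added after seeing the data. With 3 to 8 arrays a group, half-widths of the 95% intervals were 0.08 to 0.28 in the comparisons of 2 groups.

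Reversals concerned no called difference, and their cause was not tested. In 18Q vs. WT, *Penk* turned to 0.0095 with the thalamus covariate, 0.045 with the hypothalamus covariate and 0.010 with the replicate block, and *Oprk1* to 0.017 with the hypothalamus covariate. In 79Q vs. WT, *Oprd1* turned to 0.0060, 0.032 and 0.033 with the thalamus, striatum and hypothalamus covariates, and to 0.016 without the 3 79Q arrays. In 79Q vs. 18Q, *Oprm1* turned to 0.00083 with median centring and 0.017 with the replicate block, and *Oprl1* to 0.010 with the hypothalamus covariate and 0.020 with the replicate block. Without the 3 79Q arrays they were at 0.010 (*Oprm1*) and 0.036 (*Oprl1*). *Pnoc* in BACHD at 2 months turned to 0.0069 with median centring. In BACHD at 10 months the replicate block gave 0.0049 for *Pdyn*, 0.013 for *Pnoc* and -0.020 for *Oprk1*. For the difference between ages, median centring gave -0.036 for *Pnoc* and -0.015 for *Oprm1*, and the thalamus covariate -0.032 for *Oprm1* and -0.019 for *Oprd1*.

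Leaving out single arrays gave ranges that crossed 0 for *Penk* (-0.071 to 0.031) and *Oprk1* (-0.20 to 0.024) in 18Q vs. WT, *Oprd1* (-0.035 to 0.024) in 79Q vs. WT and *Oprm1* (-0.028 to 0.020) in 79Q vs. 18Q. At 10 months they did so for *Pdyn* (-0.092 to 0.080), *Pnoc* (-0.096 to 0.032) and *Oprm1* (-0.057 to 0.027), and between ages for *Pnoc* (-0.053 to 0.075) and *Oprm1* (-0.0031 to 0.086).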
